A study of Mus musculus with 72 samples.

Results

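The C/EBP family genes were examined as targets of their own product, CEBPB, in mouse embryonic fibroblasts (MEFs). The 6 genes are Cebpa, Cebpb, Cebpd, Cebpe, Cebpg and Ddit3, out of 22368 genes in the annotation used. They were chosen by name, not by a measured value, but with earlier results of these data known. For each gene, the ChIP-seq peaks of CEBPB, H3K27ac, p300, Brd3 and H3K27me3 were taken within 50 kb of the gene body (GENCODE vM1, mm9). These windows held 12 of the 17002 CEBPB sites, where a site is the union of the overlapping peaks of all 4 CEBPB libraries. WT MEFs were Hmgn1+/+n2+/+ and DKO MEFs were Hmgn1-/-n2-/-, which lack the nucleosome-binding proteins HMGN1 and HMGN2. All cells were of the C57BL/6 strain, with 2 biological replicates per genotype and antibody. The labels do not say whether the replicates came from separate embryos or cultures, so a p value here measures the spread between libraries that may share a source.

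C/EBP proteins are basic leucine zipper transcription factors that bind DNA as dimers. CEBPB and CEBPD act early in the conversion of fibroblasts into fat cells and CEBPA acts later, while CEBPE is a factor of granulocytes. CEBPG lacks a strong activation domain and pairs with other family members and with ATF4. The Ddit3 product, CHOP, is induced by endoplasmic reticulum and amino acid stress. Family members can bind near their own genes and near each other's genes, and pairs of a C/EBP with an ATF protein recognise a composite element that joins a part of each factor's site.

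Cebpb lies on chromosome 2 (167514415-167515918), Ddit3 on chromosome 10 (126727830-126733344), Cebpe on chromosome 14 (55329200-55331011) and Cebpd on chromosome 16 (15887379-15888559). Cebpg (35831441-35841522) and Cebpa (35904312-35906945) are neighbours on chromosome 7, and 62790 bp separate their gene bodies. Their windows share 37211 bp, so a peak in the shared stretch counts for both genes. GENCODE vM1 lists Cebpd as a pseudogene, and it was kept here under its name. H3K27ac, a mark of active promoters and enhancers, lay within 1000 bp of a start for 11 to 12 of 12 fibroblast marker genes per library, for 0 of 6 embryonic stem cell, 0 of 4 epithelial and 0 of 4 adipocyte markers, for 0 to 1 of 4 endothelial markers and for 2 of 5 blood and macrophage markers. The CEBPB lists held 14197 and 14692 peaks in WT and 4886 and 5328 in DKO MEFs. The lists state no read totals, so the depth behind a peak is unknown, and a lower depth or weaker enrichment of a whole library cannot be told apart from less binding at each site.

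The sequences at the CEBPB sites that the results turn on are shown first, because the sites called in both genotypes share one element. Each is the plus strand of mm9 read 5′ to 3′, with matches to TGATGCAA, the C/EBP and ATF composite, or to TTGCNNAA, the C/EBP core, in capitals. On the opposite strand TGATGCAA reads TTGCATCA. The 2 motifs cannot match the same 8 bases. The first 4 sequences belong to the sites called in all 4 libraries, and where the motif lay away from the summit or the site lay in a UTR, 30 bases around the motif are given.
Ddit3 promoter, chr10:126727510-126727570: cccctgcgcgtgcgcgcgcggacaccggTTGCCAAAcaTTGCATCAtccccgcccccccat
Cebpg first intron, chr7:35841174-35841234: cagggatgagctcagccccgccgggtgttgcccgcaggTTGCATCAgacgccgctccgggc
Cebpb UTR, chr2:167515598-167515627: gtttcgggactTGATGCAAtccggatcaaa
Mars UTR near Ddit3, chr10:126748694-126748723: ggagcccacgcTGATGCAAtcggaaccggc
Cebpa upstream, chr7:35904127-35904187: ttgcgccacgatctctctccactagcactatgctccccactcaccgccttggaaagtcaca
Slc7a8 intron near Cebpe, chr14:55373493-55373553: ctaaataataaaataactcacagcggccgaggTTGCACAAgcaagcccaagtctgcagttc
The last 2 belong to sites called in WT MEFs only. The Cebpa sequence holds neither motif, and the sequence near Cebpe holds the core without the composite.

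CEBPB was found near 5 of the 6 genes in WT MEFs, including its own gene, and fewer of its sites were called in DKO MEFs. A CEBPB peak in any library lay within 50 kb of these 5 genes and of 11566 of the 22368 genes. Of the 12 sites, 11 were called in both WT libraries. Among these 11, 4 were retained, meaning that at least 1 DKO library called them, and 7 were lost, meaning that neither did. No gained site, called by both DKO and by no WT library, lay in the windows (1.89% of all sites of both DKO libraries). The share lost was 63.6% (95% exact binomial interval 30.8 to 89.1, which covers counting error only), beside 55.2% of 12086 such sites over the genome. When every library was cut to the same number of top peaks it was 20% (1 of 5 sites), beside 16.9% over the genome, and it was 25% (1 of 4 sites) within 10 kb of the gene bodies. The 4 retained sites lay in the Cebpb gene body, in the first intron of Cebpg, at the Ddit3 promoter and at the start of Mars, a neighbour of Ddit3. All 4 were called in every library.

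**Figure D1:**
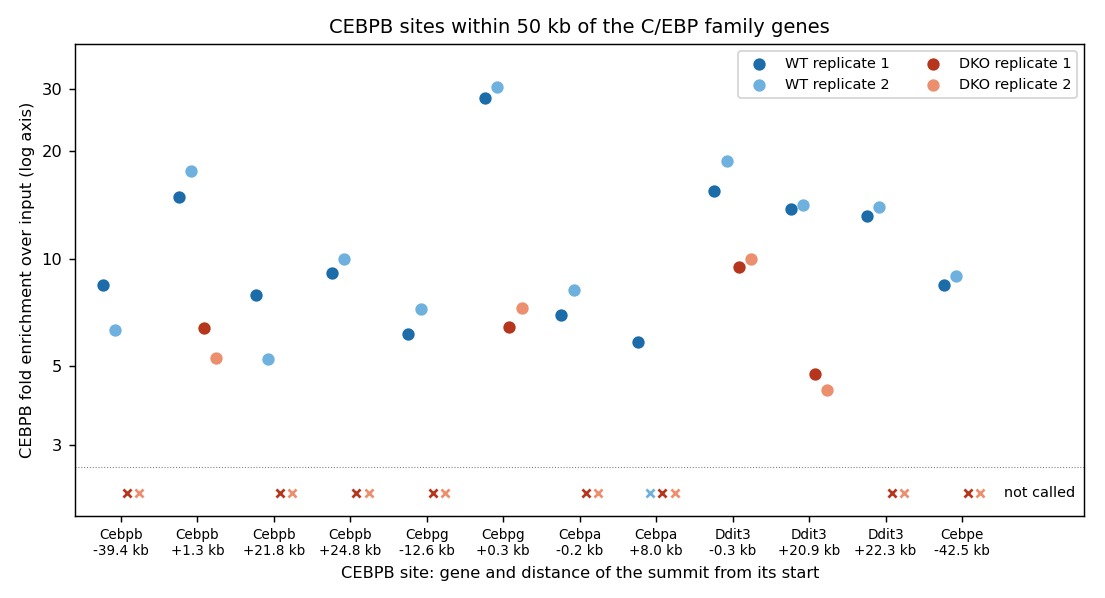
CEBPB fold enrichment over input (log axis) at the 12 CEBPB sites, each point 1 library, labelled by gene and by the distance of the summit from the gene start along its strand; crosses below the dotted line mark libraries with no peak. At the 4 sites with DKO points, both DKO libraries lie below both WT libraries, and at the other 8 no DKO library has a peak.

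Within its own window Cebpb had 4 and 4 CEBPB peaks in WT and 1 and 1 in DKO MEFs. One of the gene models named Tmem189 in the annotation reaches into the Cebpb gene, so features upstream of Cebpb can also lie in its introns. The retained CEBPB site of Cebpb lay in the 3′ part of the single Cebpb exon, in the UTR, with its summit 1255 bp downstream of the start (chr2:167515536-167515764). Its fold enrichment over input, the ratio of the signal at the summit to the local background, was 14.9 and 17.6 in WT and 6.40 and 5.26 in DKO MEFs. The DKO libraries were lower by 1.48 on the log2 scale, that is 2.80-fold in WT over DKO (standard error 0.18, limma adjusted p = 1.67e-08). The lost sites of Cebpb were distal. One lay in an intron of Tmem189, 39335 bp from the gene body, with a fold enrichment of 8.45 and 6.32 in WT. A pair lay downstream at 20230 and 23225 bp, with 7.92 and 5.24 at the nearer and 9.14 and 9.96 at the farther site. No CEBPB peak lay within 1000 bp of the Cebpb start in any library.

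Cebpg, the partner subunit, carried the strongest CEBPB site of the family, in its first intron with the summit 318 bp downstream of the start (chr7:35841042-35841619). Fold enrichment was 28.3 and 30.4 in WT and 6.45 and 7.26 in DKO MEFs. It was 4.29-fold higher in WT, a log2 difference of −2.10 for DKO minus WT (standard error 0.17, limma adjusted p = 1.68e-12). Ranked by −log10 p, the peak stood in the top 3.49% and 3.32% of the WT lists. A weaker site 12480 bp upstream of the gene, with 6.14 and 7.21 in WT, was called in neither DKO library. Peak numbers in the Cebpg window were 2 and 3 in WT and 1 and 1 in DKO MEFs.

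Cebpa, the factor of later fat cell differentiation, lost its CEBPB peaks. A site ending 40 bp upstream of the Cebpa gene body (chr7:35904082-35904272) had a fold enrichment of 6.95 and 8.15 in WT and no peak in DKO MEFs. A second one, 5125 bp from the gene body, was called with 5.82 in WT replicate 1 only. The window of Cebpa held 2 and 1 peaks in WT and 0 and 0 in DKO MEFs. The site in the Cebpg window described above lay 50132 bp from the Cebpa body, just outside the limit, and the nearest site just inside the limit for any gene was the one of Cebpe at 42426 bp.

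Ddit3, the stress-induced member, kept 2 of its 3 CEBPB sites. Its window held 3 and 3 peaks in WT and 2 and 2 in DKO MEFs. At the promoter (chr10:126727420-126727681, summit 290 bp upstream of the start) fold enrichment was 15.4 and 18.8 in WT and 9.46 and 9.96 in DKO MEFs, 1.75-fold higher in WT (log2 difference −0.81, standard error 0.17, limma adjusted p = 8.19e-05). At the start of Mars, the methionyl-tRNA synthetase gene, 15246 bp from the Ddit3 body (chr10:126748590-126748933), fold enrichment was 13.8 and 14.1 in WT and 4.73 and 4.28 in DKO MEFs (log2 difference −1.63, standard error 0.19, adjusted p = 4.3e-09 in the same limma fit). Another site, with its summit 1248 bp from the Mars start, had 13.2 and 13.99 in WT and no DKO peak.

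Cebpe, the granulocyte member, had a single CEBPB site, in an intron of Slc7a8 and 42426 bp from the gene body, with a fold enrichment of 8.42 and 8.96 in WT and no DKO peak. Cebpd had 0 CEBPB peaks within 50 kb in all 4 libraries, although its promoter was marked by H3K27ac. The family thus ranged from 0 to 4 CEBPB peaks per gene in WT MEFs, in the order Cebpb, Ddit3, Cebpg, Cebpa, Cebpe and Cebpd by the WT mean. Cebpg and Ddit3 overlapped in WT (2 and 3 against 3 and 3 peaks), as did Cebpa and Cebpg (2 and 1 against 2 and 3) and Cebpa and Cebpe (2 and 1 against 1 and 1).

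At all 4 retained sites the test of fold enrichment passed in the direction of lower values in DKO MEFs. Over the genome this call was made for 67.7% of the 4193 sites called in all 4 libraries, and their median log2 difference was −0.68 (4.27% were called higher), so a lower value at these 4 sites is not particular to the family. With each library centred on its own median, 960 of 2132 calls over the genome were lower in place of 2838 of 3017, and the background shares called lower and higher became 22.9% and 28.0%. Relative to that median, Cebpg (−1.36, adjusted p = 8.61e-07), the Mars start (−0.90, adjusted p = 0.000496) and the Cebpb body (−0.75, adjusted p = 0.00193) stayed lower in DKO MEFs by the limma test, and the Ddit3 promoter did not pass (−0.07, standard error 0.16, adjusted p = 0.708). The uncentred difference at the Ddit3 promoter, −0.81, lay near the median of all sites.

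The number of CEBPB peaks was lower in both DKO libraries than in both WT libraries for 5 of the 6 genes, all except Cebpd. The same held for 60.4% of the 11566 genes with a CEBPB peak in any library, and for 61.5% of the 6406 genes with a mean of at least 1 peak per library. None of the 6 had more in both DKO libraries (0.125% of those 6406 genes). Of the members, Cebpb, Cebpg and Ddit3 reached that mean. An exact permutation test of 2 against 2 libraries cannot go below p = 0.333 (two-sided), and peak numbers are given here without a test. When every CEBPB library was cut to the same number of its top peaks, only Ddit3 kept lower numbers in DKO MEFs (3 and 3 against 2 and 2), Cebpb and Cebpg had 1 peak in every library, and Cebpa and Cebpe had none. The background share was then 8.89% of the 4038 genes with a mean of at least 1 peak per library. Within 10 kb of the gene bodies only Cebpa, of the 4 members with a CEBPB peak there, had fewer in both DKO libraries, beside 54.7% of the 6420 genes with a peak in that window.

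**Figure D2:**
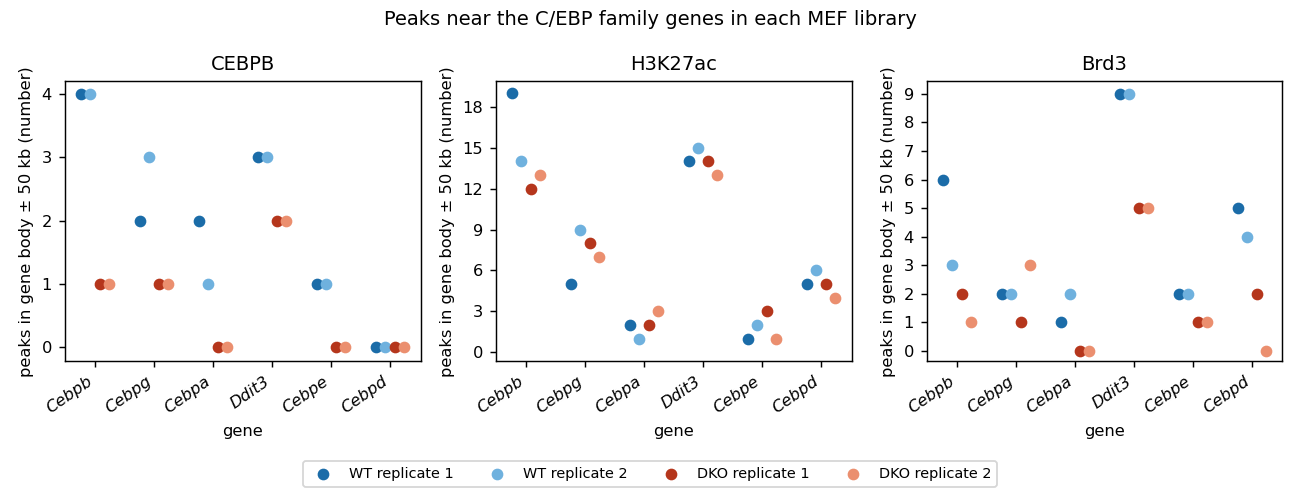
Number of CEBPB, H3K27ac and Brd3 peaks in the gene body and 50 kb to either side of the 6 genes, each point 1 library of WT or DKO MEFs. CEBPB numbers run from 0 to 4 and both DKO points lie below both WT points for every gene but Cebpd, while H3K27ac points of the genotypes overlap for every gene but Cebpb.

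In WT MEFs the 4 retained sites were the strongest of the 11. They stood in the top 3.32% to 16.3% of their WT lists, whereas the 7 lost sites stood between 22.8% and 89.7%. The lost site nearest in strength was the one upstream of Mars, at 24.7% and 22.8%. The 3 CEBPB sites beyond 50 kb but within 100 kb of the Cebpb body showed both outcomes: the one at 63578 bp was lost with a fold enrichment of 13.1 and 14.6 in WT, and those at 69585 and 87085 bp were retained. At the retained site 69585 bp away, fold enrichment was 25.7 and 25.5 in WT and 11.9 and 12.8 in DKO MEFs.

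**Figure D3:**
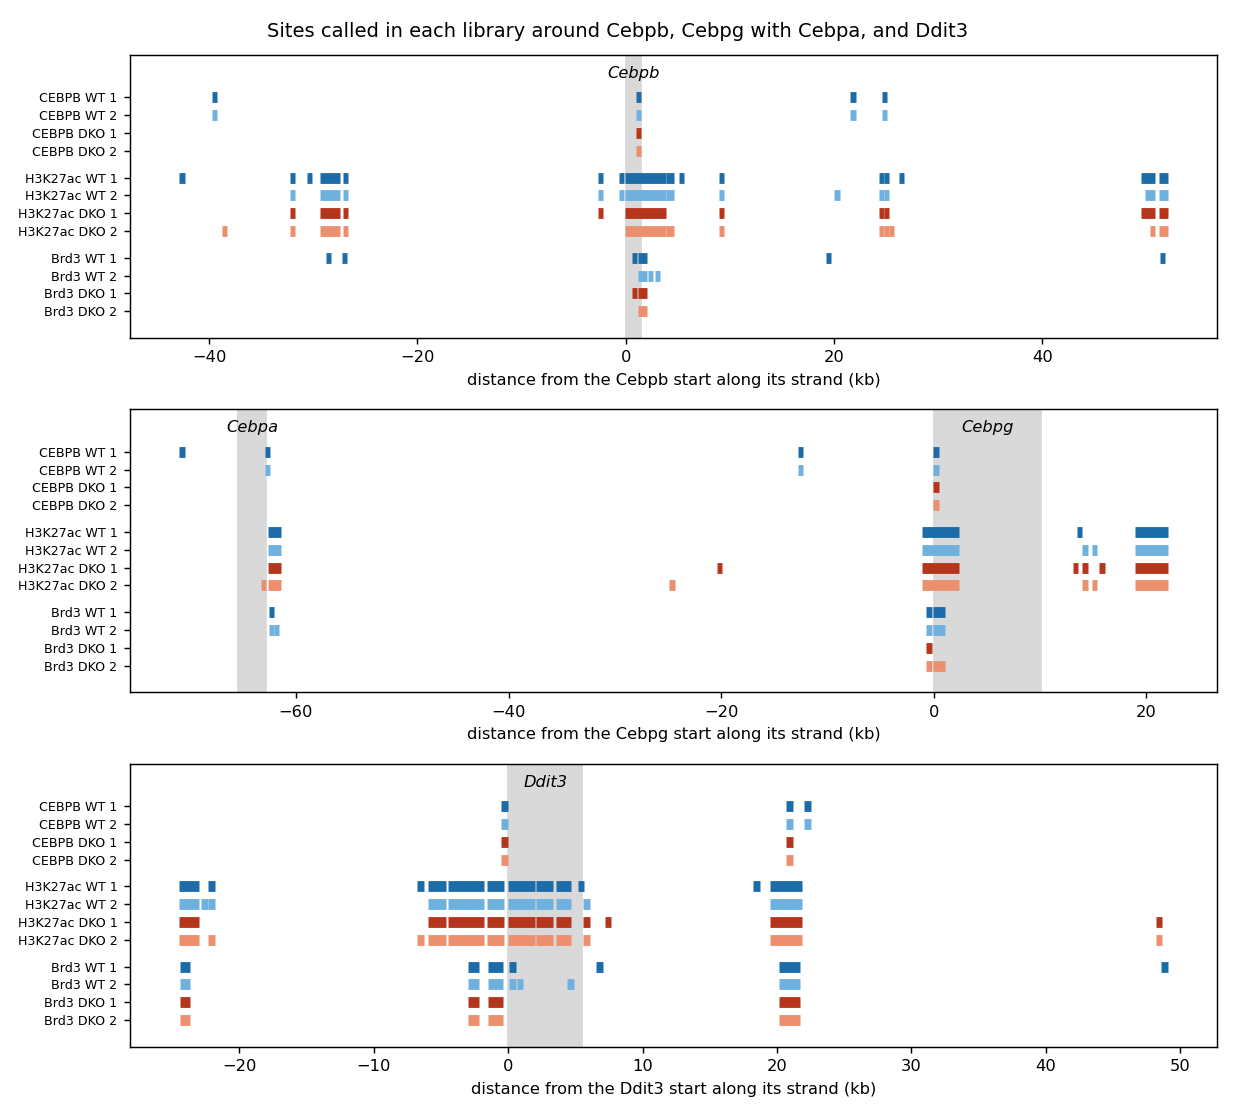
Sites called in each library around Cebpb, around Cebpg with Cebpa, and around Ddit3, drawn by distance from the gene start (kb) with gene bodies in grey; sites shorter than 0.5 kb are widened to be seen. CEBPB marks at the Cebpb body, the Cebpg start and the Ddit3 start appear in all 4 libraries, and the distal CEBPB marks of Cebpb and the mark at Cebpa appear in WT rows only.

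All 4 retained sites held the composite TGATGCAA within 100 bp of the summit, and none of the 7 lost sites did. This was seen after the sites had been sorted and is given without a test. The motif centre lay 11 bp from the summit at both Cebpg and the Ddit3 promoter, 32 bp from it at Mars and 58 bp from it in the Cebpb UTR. The composite was present at 4 of the 12 sites (33.3%), at 9.26% of all CEBPB sites and at 0.594% of positions 5000 bp away. Over the genome the separation was far weaker: 51.0% of 1202 sites with the composite were retained and 44.1% of 10884 sites without it. The core TTGCNNAA was present at 5 of the 12 sites (41.7%), at 49.7% of all CEBPB sites and at 8.64% of positions 5000 bp away. It was found at the Ddit3 promoter, 1 bp from the summit, and at 4 lost sites, those near Cebpe, upstream of Cebpg, upstream of Mars and 20230 bp beyond Cebpb. Over the genome the core was present at 57.4% of retained and 48.8% of lost sites. The palindrome TTGCGCAA was at 0 of 12 sites (3.56% of all sites) and the CRE TGACGTCA at 0 of 12 (0.294%). The AP-1-like sequence TGANTCA was at 4 of 12 (24.1% of all sites), at 1 retained and 3 lost sites, and at none within 50 bp of the summit. Over the genome it ran the other way, at 30.2% of retained and 20.2% of lost sites.

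A CEBPB peak within 1000 bp of a start was called in both WT libraries for 3 of the 6 genes, Cebpa, Cebpg and Ddit3, and for 4.66% of 22360 genes. It was absent from both DKO libraries for Cebpa alone of these 3. The same was true of 56.1% of the 1043 genes with such a promoter peak.

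Of 24 H3K27ac sites tested at the family genes, 4 passed a test between the genotypes, beside 3498 of 42234 over the genome. Of 29 H3K27ac sites called in both WT libraries, 28 were retained and 1 was lost, beside 11.2% lost over the genome, and the share lost was 10.3% to 21.1% when any one library was left out, beside 16.1% to 23.3% over the genome under the same omissions. A single gained site, 48410 bp from the start of Ddit3 and near Gli1, had 8.17 and 7.20 in DKO MEFs (8.83% of sites of both DKO libraries were gained). Of the 24 sites called in all 4 libraries, 2 were called lower in DKO MEFs (5.52% of all sites) and 2 higher (2.76% of all sites), at an adjusted p under 0.05 by limma. With centred libraries 2 were lower (3.66%) and 3 higher (3.91%). The 4 calls became 2 with no trend in the prior variance (2157 of 42234 over the genome). They became 8 with the replicate number as a block in the fit (4811 of 42234). Peak numbers within 50 kb overlapped between the genotypes for 5 genes, with 14 and 15 against 14 and 13 at Ddit3 and 5 and 6 against 5 and 4 at Cebpd. For Cebpb they were 19 and 14 in WT and 12 and 13 in DKO MEFs, a non-overlap that 28.9% of genes showed in this direction, and 7.42% in the other. With lists of equal length the Cebpb numbers were 19 and 13 in WT and 12 and 13 in DKO MEFs, which overlap. Without WT replicate 1, 4 of the 6 genes had fewer H3K27ac peaks in DKO MEFs (43.1% of all genes tested), and without DKO replicate 1, 3 of the 6 did (41.7%).

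At Cebpb, the H3K27ac site that covers the gene (chr2:167514324-167518244) had a fold enrichment of 14.4 and 12.9 in WT and 20.7 and 21.2 in DKO MEFs. Its summits, where fold enrichment is read, lay at 167516280 to 167516380, beyond the end of the Cebpb gene body at 167515918. The value was higher in DKO MEFs by 0.61 on the log2 scale (standard error 0.19, limma adjusted p = 0.0439). This was the opposite direction to CEBPB at the retained site that the H3K27ac site overlapped. This call was lost without WT replicate 2 (adjusted p = 0.139), without DKO replicate 1 (0.126) and without DKO replicate 2 (0.156), and with no trend in the prior variance (0.112). At the start of Tmem189, 27402 bp from the Cebpb body, H3K27ac was 16.4 and 13.5 in WT and 5.19 and 5.78 in DKO MEFs (log2 difference −1.44, standard error 0.24, limma adjusted p = 0.000783), the largest decrease among the 24 tested sites of this mark. The sole lost H3K27ac site was a small one 273 bp upstream of the Cebpb gene body, with 5.75 and 5.93 in WT.

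At the Cebpg start, where CEBPB differed most, H3K27ac was 24.95 and 25.1 in WT and 28.9 and 24.9 in DKO MEFs. The log2 difference was 0.10 (standard error 0.16, limma adjusted p = 0.75), which did not pass the test at a site where CEBPB was 4.29-fold higher in WT. A distal site near Cebpg, 8812 bp beyond its 3′ end, had 6.14 and 5.64 in WT and 12.2 and 9.29 in DKO MEFs (log2 difference 0.85, limma adjusted p = 0.0347). That call was lost without WT replicate 1 (adjusted p = 0.0517), WT replicate 2 (0.0954) or DKO replicate 1 (0.257). At the Cebpa promoter, whose CEBPB peak was lost, H3K27ac was 9.14 and 6.63 in WT and 11.8 and 11.9 in DKO MEFs (log2 difference 0.61, standard error 0.24, limma adjusted p = 0.115). At Cebpd it was 17.0 and 16.9 in WT and 16.1 and 18.98 in DKO MEFs (log2 difference 0.05, standard error 0.19, limma adjusted p = 0.914). Cebpe had no H3K27ac peak within 1000 bp of its start in any library.

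At the Ddit3 promoter H3K27ac was called lower in DKO MEFs on one side of the start. Just upstream of the start (chr10:126726229-126727507) the mark was 41.6 and 34.3 in WT and 21.2 and 23.6 in DKO MEFs, 1.69-fold higher in WT (log2 difference −0.76, standard error 0.16, limma adjusted p = 0.00392), a call lost with no trend in the prior variance (adjusted p = 0.065). Just downstream of the start it was 21.4 and 23.6 in WT and 26.9 and 26.0 in DKO MEFs (log2 difference 0.23, limma adjusted p = 0.404). The upstream site was the one that overlapped the CEBPB site. Whether the differences of CEBPB and H3K27ac at a site differed from each other was not tested.

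**Figure D4:**
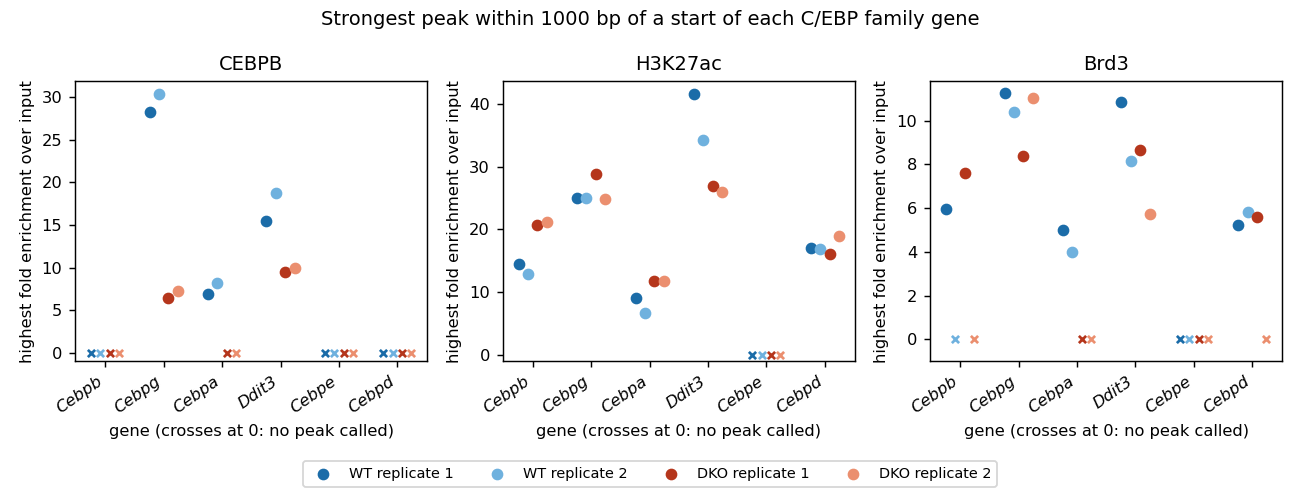
Highest fold enrichment of CEBPB, H3K27ac and Brd3 over input among peaks within 1000 bp of a start of each gene, each point 1 library, with crosses at 0 where no peak was called. CEBPB at Cebpg drops from 28.3 and 30.4 in WT to 6.45 and 7.26 in DKO libraries while H3K27ac stays between 24.9 and 28.9. At Ddit3 both are lower in both DKO libraries. The highest H3K27ac peak of Ddit3 lies upstream of the start in WT but downstream of it in DKO libraries, so these points show different sites.

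Brd3, a reader of acetylated histones, had 25 and 22 peaks near the 6 genes in WT and 11 and 10 in DKO MEFs. Its whole lists held 31404 and 33072 peaks in WT and 8970 and 11549 in DKO MEFs. The share near the 6 genes was 0.0796% and 0.0665% in WT and 0.123% and 0.0866% in DKO MEFs. Its numbers were 9 and 9 against 5 and 5 at Ddit3, 5 and 4 against 2 and 0 at Cebpd, 6 and 3 against 2 and 1 at Cebpb, 2 and 2 against 1 and 1 at Cebpe and 1 and 2 against 0 and 0 at Cebpa. Both DKO libraries were below both WT libraries at these 5 genes, as at 71.6% of the 16527 genes with a Brd3 peak in any library and 76.0% of the 14026 genes with a mean of at least 1. Cebpg overlapped, with 2 and 2 in WT and 1 and 3 in DKO MEFs. Of 14 Brd3 sites called in both WT libraries near the family, 4 were lost (28.6%), beside 52.0% over the genome, and the share near the family was 50% without WT replicate 1 (66.3% over the genome) or WT replicate 2 (64.7%) and 42.9% without DKO replicate 1 (58.4%). No Brd3 site was gained (0.308% over the genome). With lists of equal length none of the 5 members that had a Brd3 peak had lower numbers in both DKO libraries, beside 12.5% of 13875 genes with a peak. With peaks merged within 1000 bp, 1 of the 6 genes did, beside 60.1% of genes with a peak. Within 10 kb, 3 of the 5 members with a peak there did, beside 56.1%.

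Fold enrichment of Brd3 at the 7 sites called in all 4 libraries was called lower at 1, beside 20.5% of 5422 sites, and higher at 0 (0.387%). This site lay at the start of Acin1, a neighbour of Cebpe (14.2 and 14.6 in WT, 6.56 and 7.61 in DKO MEFs, log2 difference −1.03, standard error 0.23, limma adjusted p = 0.0093), and the call was lost with libraries centred on their medians (−0.61, adjusted p = 0.152), when 0.664% of all sites were called lower and 0.83% higher. Upstream of the Ddit3 start, Brd3 was 10.9 and 8.14 in WT and 8.67 and 5.75 in DKO MEFs (log2 difference −0.41, standard error 0.27, limma adjusted p = 0.273). Upstream of Cebpg it was 11.3 and 6.89 in WT and 8.38 and 11.1 in DKO MEFs (log2 difference 0.13, standard error 0.27, limma adjusted p = 0.764).

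The acetyltransferase p300 was called near 1 of the 6 genes. Over the genome, 6338 of 22368 genes had a p300 peak within 50 kb in any library. A single p300 site, at the Ddit3 promoter (chr10:126727568-126727749), was called in WT replicate 1 (fold enrichment 5.50) and DKO replicate 2 (5.10) and overlapped the CEBPB site there. H3K27me3, a Polycomb mark, had 1 peak in all, in WT replicate 2, 30219 bp from Ddit3. Its lists held 553 and 388 peaks in WT and 213 and 117 in DKO MEFs. An H3K27me3 peak in any library lay within 50 kb of 1424 of 22368 genes. Of the 11 CEBPB sites of both WT libraries, 5 overlapped an H3K27ac peak in both WT libraries (31.0% of all such sites) and 4 overlapped a Brd3 peak in both (10.7%). The 4 retained sites were the ones with Brd3 in WT MEFs, and each also overlapped H3K27ac in every library. In both DKO libraries, 1 of the 11 sites overlapped Brd3, the one at the Mars start, beside 1.66% over the genome. These overlaps were seen after the sites had been sorted, and their split between retained and lost sites over the genome is not shown here. Among the 7 lost sites, 1 overlapped H3K27ac in WT libraries, the site 23225 bp downstream of Cebpb. The lost site upstream of Cebpa overlapped an H3K27ac peak only in the DKO libraries, with 11.8 and 11.9. The same H3K27ac site was also called in both WT libraries, with 9.14 and 6.63, but its WT peaks did not reach the CEBPB site.

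Genes of the wider C/EBP network were counted in the same way, beside the 61.5% of genes with a mean of at least 1 CEBPB peak that had fewer in both DKO libraries. Of 26 partner and stress genes, 18 had a mean of at least 1 CEBPB peak, and 12 of these 18 had fewer peaks in both DKO libraries, with a median log2 change of peak number plus 1 of −0.79, beside −0.71 over all genes tested. No gene of the list had more peaks in both DKO libraries. Near Nfe2l2, the regulator of the oxidative stress response, CEBPB had 7 and 7 peaks in WT and 3 and 3 in DKO MEFs. Near Trib2 it had 5 and 8 against 2 and 2, near Bcl2, an inhibitor of apoptosis, 5 and 7 against 2 and 2, and near Atf6, a sensor of endoplasmic reticulum stress, 4 and 6 against 2 and 2. Of 57 sites of both WT libraries near these genes, 26 (45.6%) were lost, beside 55.2% over the genome. Of 22 adipogenesis genes, 9 had that mean, and 7 of the 9 had fewer peaks in both DKO libraries (median −0.95). Near Pparg, the master regulator of fat cells and a known C/EBP target, CEBPB had 6 and 6 peaks in WT and 4 and 5 in DKO MEFs. Near Cd36, a fatty acid transporter, it had 6 and 5 against 2 and 2, near Ebf1 5 and 5 against 2 and 3, and near Ppargc1a, a coactivator of energy metabolism, 4 and 5 against 1 and 1. Of 33 sites near adipogenesis genes, 16 (48.5%) were lost, beside the same 55.2%.

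The genes most like each member were found by the Euclidean distance of log2 peak numbers plus 1 over the 20 MEF libraries, with ties in alphabetical order. For Cebpb these were Ano10, Pacs1 (both at a distance of 1.07) and Rsc1a1 (1.11), and for Cebpg 1110038D17Rik (0.847), Ptbp2 (0.877) and 4930426L09Rik (0.904). For Ddit3 they were 9630033F20Rik (1.42), Tmem19 (1.70) and Apoa2 (1.72), and for Cebpd Kcng2 (0.851), Scai (0.868) and Ppp6r1 (0.896). Ccdc112, Ccr6 and Fbxo22 (0.926 each) stood nearest to Cebpe, and Olfr1375-ps1, Olfr54 and Zfp354a (0.786 each) to Cebpa. The pattern of Ddit3, with peaks of several antibodies, had the most distant neighbours.

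In embryonic stem cells (ESCs) of the same genotypes, other factors were found near the family. NANOG had 3 and 3 peaks near Cebpa in WT and 7 and 7 in DKO ESCs, 7 and 8 against 11 and 9 near Ddit3, and 0 and 1 against 3 and 2 near Cebpg. Both DKO libraries were above both WT libraries at these 3 genes, and at 42.4% of 18957 genes. OCT4 was above at Ddit3 (2 and 1 against 5 and 5) and at Cebpd (1 and 1 against 2 and 2), as at 68.1% of 12960 genes. CTCF had 4 to 13 peaks near each gene and was above only at Ddit3, with 11 and 11 against 13 and 13, as at 13.6% of 20157 genes.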

How the data were processed

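Deposited ChIP-seq peaks for CEBPB, H3K27ac, p300, Brd3 and H3K27me3 in MEFs were used, with 2 biological replicates per genotype. Peak numbers of the other deposited lists, of histone H1 in MEFs and of transcription factors and CTCF in ESCs and resting B cells, were counted in the same windows. Per the labels' processing notes, the authors trimmed reads with cutadapt 1.16, mapped them with BWA to mm9 and called peaks against input with MACS2 2.1.1.20160309. The labels list a single MEF input library for each genotype. The p values of fold enrichment therefore do not measure the spread between inputs. The deposited fold enrichment is the authors' ratio of summit signal to local background. The deposited −log10 p-values and −log10 q-values are from their caller, and no list held a q above 0.01. Peaks were called per library.

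Genes were the protein-coding genes of GENCODE vM1 plus Cebpd. The members and gene lists were chosen with earlier results of these data known. Named items are the 6 genes, the strongest and the promoter CEBPB sites of each, the 4 genes per list with the most WT peaks and the 3 genes most like each member. Other sites named were chosen after their values were seen. Peaks were merged into sites at 1 bp of overlap. Log2 fold enrichment at sites called in all 4 libraries was compared with limma 3.58.1 in R 4.3.3, with a trended prior variance and no replicate block. P values were adjusted by Benjamini and Hochberg over all sites of an antibody, with a threshold of 0.05, and the procedure was tested on simulated data. Restriction to sites called in all 4 libraries leaves out every lost site.

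A limma test of log2 peak numbers plus 1 per gene had been planned. It was fitted, and called 2628 of 6406 genes for CEBPB, but its p values are not reported: in 54.9% of these genes the replicates of both genotypes had equal numbers, which leaves no spread to test against. On simulated peak numbers it also failed to recover the changed genes. Peak numbers are therefore given per library, with the share of genes whose genotypes did not overlap. The share over genes with a peak in any library was added after seeing the data. Motifs were searched on both strands of mm9 with pysam 0.24.0. Depth is unknown for these lists.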

Additional observations from a re-analysis of the deposited data

How the results depend on the processing

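The number of members with fewer peaks in both DKO libraries is given with the share of all genes with a peak in brackets. CEBPB gave 5 in the main setting (60.4%), 1 within 10 kb (54.7%) and 1 with lists of equal length (15.1%). Without any one replicate it gave 5 (62.5% to 76.5%). H3K27ac gave 1 (28.4%), but 3 within 100 kb (34.9%) and 0 with lists of equal length (18.7%). Without one replicate it gave 1 to 4 (40.8% to 43.1%). Brd3 gave 5 (71.6%), but 3 within 10 kb (56.1%), 1 with peaks merged within 1000 bp (60.1%) and 0 with lists of equal length (12.5%). Without one replicate it gave 5 to 6 (75.3% to 83.5%). H3K27me3 gave 0 (19.7%), and 0 to 1 without one replicate (23.7% to 63.5%), and p300 gave 0 throughout (6.3% to 62.3%). Within 50 kb and with all 4 libraries, every gene had a WT library without a peak of either, so no other count was possible there. The share of CEBPB sites lost was 63.6%, but 25% within 10 kb (1 of 4 sites) and 20% with lists of equal length (1 of 5 sites), and 63.6% to 66.7% without one replicate. For H3K27ac it was 3.45%, but 0.0% (0 of 39 sites) when a peak within 500 bp sufficed, 25% for sites of either WT library, and 10.3% to 21.1% without one replicate. For Brd3 it was 28.6%, but 0.0% (0 of 6 sites) with lists of equal length and 60.7% for sites of either WT library, and 35.7% to 50% without one replicate. The share of CEBPB sites with TGANTCA was 33.3%, and 0.0% (0 of 12) within 50 bp.

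CEBPB sites near the genes called by limma numbered 4, and 3 with libraries centred on their medians, when the Ddit3 promoter no longer passed. H3K27ac sites numbered 4, but 2 with no trend in the prior variance and 2 to 5 without one replicate (2 without DKO replicate 1), where the lone library of a genotype is assumed to vary like the others. Over all sites H3K27ac calls went from 3498 to 2157 with no trend and to between 2251 and 2767 without one replicate. Brd3 calls near the genes went from 1 to 0 and over all sites from 1130 to 81 with centred libraries, and over all sites to between 656 and 854 without one replicate.

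Replicate numbers are shared by the genotypes, but the labels give them no common source, and same-numbered libraries did not deviate together (r = 0.00127 over 4193 CEBPB sites, 0.00578 for H3K27ac and −0.015 for p300). With the replicate block, limma called 4 of 4 CEBPB sites near the genes (3065 of 4193 over all sites, 3017 without it), and 8 in place of 4 H3K27ac sites near them (4811 in place of 3498 over all sites). The limma test of peak numbers is not reported, for the reason given with the methods, and neither are its fits without the trend, without the filter or with the replicate block. The cause of these shifts was not tested. The few libraries, the unknown depth and the small number of sites limit what can be read from any single gene.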

Other observations

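In resting B cells, which were not compared above, IKAROS had 4 and 3 peaks near Ddit3 in WT and 2 and 2 in DKO cells, and ETS1 had 1 and 1 near Cebpb in WT and none in DKO cells. Over all genes tested, 55.7% had fewer IKAROS peaks and 59.7% fewer ETS1 peaks in both DKO libraries. IRF8, PAX5 and OCT2 had 0 peaks near the 6 genes in every library, and so did histone H1 in MEFs. In ESCs, KLF4 had 1 and 1 peaks near Cebpa in WT and none in DKO cells, and 3.83% of genes had fewer KLF4 peaks in both DKO libraries. SOX2 had none near Ddit3 in WT and 1 and 2 in DKO cells, and 33.3% of genes had more SOX2 peaks in both DKO libraries.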
